A study of Mus musculus with 16 samples.

Results

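The genes described here encode the subunits of the proteasome and were measured in mouse liver. They were taken as all genes whose symbol consists of Psma, Psmb, Psmc or Psmd and a number, without the 3 immunoproteasome genes Psmb8, Psmb9 and Psmb10, that had a probe well above background on at least 8 of 16 arrays. Of 36 genes with such a symbol 35 met the rule, among 25790 features tested, of which 15247 carried a gene symbol. The 15 genes with a Psma or Psmb symbol belong to the core particle and the 20 with a Psmc or Psmd symbol to the regulatory particle or its assembly. The gene left out was Psmb11, a thymus-specific subunit, whose probe was well above background on 0 miR-185-inh and 3 ctrl-inh arrays.

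Livers came from 16 male ApoE KO mice, which lack apolipoprotein E, with a labelled age of 8 weeks and a high-fat diet. The comparison set 8 mice treated with miR-185-inh against 8 treated with ctrl-inh. The miR-185-inh group received lentiviruses that encode an antisense of the microRNA miR-185, and the ctrl-inh group received the control inhibitor, whose sequence and vector are not given in the sources used here. All mice of both groups carried the ApoE knockout and the diet, so neither group stands for a wild-type or chow-fed liver, and the labels put the harvest after 8 weeks. The stated aim of the series was to profile genes under miR-185 in bile acid metabolism, and the proteasome is not named in it. The labels give a mouse number per array but do not say whether litters or cages were shared.

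The proteasome is the protease complex that degrades proteins tagged with ubiquitin. Its core particle is a barrel with outer alpha rings, which gate the entry, and inner beta rings, which hold the proteolytic sites. The regulatory particle caps the barrel: a base of ATPases unfolds the substrate and a lid removes the ubiquitin chain. In liver and other tissues the subunit genes are known to be transcribed together, and the transcription factor NFE2L1 is known to raise them when proteasome activity falls.

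Each mouse gave 1 array, and a level here is log2 of the background-subtracted intensity relative to the 75th percentile of that array, so levels of different genes, which come from different probes, were not compared. Between 58.7% and 74.8% of spots per array were well above background, and any pair of arrays correlated at 0.984 to 0.996 over the features tested. All 8 miR-185-inh arrays lay on one slide with one scan and all 8 ctrl-inh arrays on another, so that slide and treatment cannot be told apart. Both slides held 2 rows of 4 arrays, and differences within the rows are given for the members with the lowest p and for the groups of genes. Of 8 hepatocyte markers listed 7 were tested, and each was well above background on all arrays. In whole tissue, fewer cells of a type and less RNA per cell cannot be told apart.

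No proteasome subunit gene passed the test between miR-185-inh and ctrl-inh livers. With limma, 0 of 35 members had an adjusted p under 0.05, against 4.71% of all features tested, and the lowest adjusted p among them was 0.0679. Other scalings and background corrections called 1 to 4 members, against 3.35% to 9.62% of all features. These were Psmd1, higher, and Psmc4, Psmd14 and Psma3, lower, in different combinations. Psmc5 and Psmd3, higher, were called only with each array scaled to its median. Limma on the values of the authors' deposited table called 0, with a lowest adjusted p of 0.0703. An unadjusted p under 0.05 was seen in 8 of 35 members, against 20.2% of all features, with 6 members lower in miR-185-inh (13.7% of all features) and 2 higher (6.59%). The exact permutation test put the same 8 members under 0.05, 1 of 15 core and 7 of 20 regulatory genes. No share over all features is at hand for that test, and the split between the particles was not tested. The split also depended on the probe. In the same test, second probes of the core genes Psma4 and Psmb5 were under 0.05, and that of Psmd10 was not. In 0 of 35 members did the groups fail to overlap, against 0.857% of all features. The differences were small: the median absolute log2 difference was 0.057 over the members and 0.11 over all features, and 9 members differed by at least 0.1, against 54.7% of all features. Among other features within the range of the members' mean levels (Psma8 left out) the median absolute difference was 0.077, 39.2% differed by at least 0.1 and 2.39% were called.

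The core and the regulatory particle had the same median log2 difference, miR-185-inh minus ctrl-inh, of -0.050 each, against -0.033 over all features. Of the core genes 9 of 15 lay below zero and of the regulatory genes 14 of 20, together 23 of 35, against 58.0% of all features. The match of the medians depended on the processing. With the probes of a gene averaged, the core median was -0.055 and the regulatory median -0.0048. Normexp background correction gave -0.049 and -0.015, and a block for the mouse number gave -0.036 and -0.068. With each array scaled to its median in place of its 75th percentile both medians turned positive, 0.061 for the core and 0.060 for the regulatory particle, and only 7 of 35 members lay below zero, while the median over all features moved to 0.078. That scaling adds the same constant to the log2 difference of every gene with a value on all arrays. The distance between the members' medians and that of all features was therefore bound to stay nearly the same. Sign turns under it come from this shared shift and are not separate results of single genes. The members are bright genes, and among the 8688 other features of that level range the median difference was 0.012 and 45.8% lay below zero. For 32 of 35 members the 95% interval of the difference lay within a 1.25-fold change in either direction, and for 34 within 1.5-fold. The plot of differences shows the members by role.

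**Figure D1:**
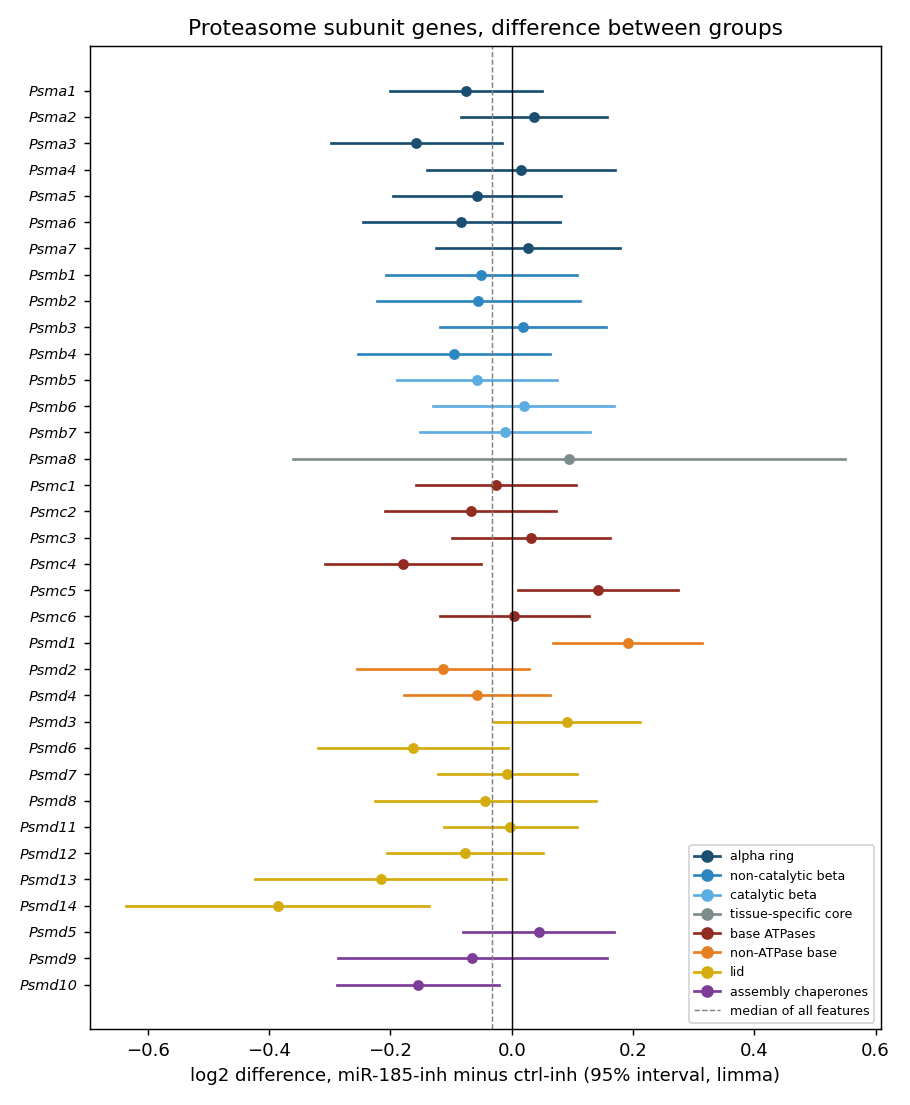
Log2 difference, miR-185-inh minus ctrl-inh, for the 35 members by role (points) with the 95% interval from limma (lines, 8 mice a group). Psmd14 lies lowest at -0.39 and Psmd1 highest at 0.19, and the dim gene Psma8 has the widest interval; with each array scaled to its median, 28 of 35 members lie above zero.

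In the alpha ring, the outer ring of the core particle, 4 of 7 genes lay below zero (1 of 7 with each array scaled to its median). All 7 had limma adjusted p-values of at least 0.191, and only Psma3 reached 0.05 before adjustment. Psma3 had log2 levels of 4.17 to 4.58 (median 4.44) in miR-185-inh livers and of 4.45 to 4.67 (median 4.56) in ctrl-inh livers. The groups overlapped, with 7 of 8 miR-185-inh mice below the ctrl-inh mean and mice 12 and 7 the lowest. The difference of -0.16 (SE 0.067, 1.11-fold lower in miR-185-inh) had an adjusted p of 0.191 and an exact permutation p of 0.0176, with -0.079 in slide row 1 against -0.24 in row 2. Psma1 ran from 3.09 to 3.43 (median 3.28) in miR-185-inh and from 3.26 to 3.48 (median 3.37) in ctrl-inh livers. Its difference of -0.075 (SE 0.059, 1.05-fold lower) was within the spread between mice (adjusted p 0.521), and 2 miR-185-inh mice exceeded the mean of ctrl-inh. Psma6 spanned 4.10 to 4.53 (median 4.44) in miR-185-inh and 4.27 to 4.62 (median 4.45) in ctrl-inh livers. Here too the groups overlapped, with a difference of -0.083 (SE 0.077, 1.06-fold lower, adjusted p 0.595). The other alpha subunits differed by -0.057 (Psma5), 0.015 (Psma4), 0.027 (Psma7) and 0.037 (Psma2). With each array scaled to its median, Psma1 and Psma6 were higher in miR-185-inh by 0.036 and 0.028.

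Psmb1, Psmb2, Psmb3 and Psmb4 are the beta subunits without a proteolytic site, and 3 of these 4 lay below zero (0 of 4 with array-median scaling) without passing the test. Psmb4 had log2 levels of 4.28 to 4.71 (median 4.64) in miR-185-inh and of 4.50 to 4.86 (median 4.63) in ctrl-inh livers. The medians were nearly equal, and the mean difference of -0.095 (SE 0.075, 1.07-fold lower, adjusted p 0.522) came with low values in miR-185-inh mice 7 and 12. Psmb2 ran from 3.55 to 3.87 (median 3.75) in miR-185-inh livers, inside the range of ctrl-inh livers, 3.51 to 4.04 (median 3.80). Its difference was -0.055 (SE 0.079, 1.04-fold lower, adjusted p 0.753). Psmb1 ran from 3.76 to 4.24 (median 4.15) in miR-185-inh and from 3.97 to 4.36 (median 4.14) in ctrl-inh livers. Its difference was -0.050 (SE 0.075, 1.04-fold lower, adjusted p 0.764), and that of Psmb3 was 0.019. Scaled to the array median, Psmb4, Psmb2 and Psmb1 lay above zero at 0.016, 0.055 and 0.061.

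The catalytic beta subunits are Psmb5, with chymotrypsin-like activity, Psmb6, with caspase-like activity, and Psmb7, with trypsin-like activity. With the brightest probe of each, none of these 3 genes differed between the groups beyond the spread between mice. A second, dimmer Psmb5 probe differed by -0.14 (exact permutation p 0.0322). Psmb5 had log2 levels of 4.10 to 4.42 (median 4.24) in miR-185-inh livers and of 4.17 to 4.43 (median 4.32) in ctrl-inh livers, a difference of -0.057 (SE 0.063, 1.04-fold lower, adjusted p 0.664). Psmb6 had 4.33 to 4.66 (median 4.58) in miR-185-inh and 4.23 to 4.72 (median 4.54) in ctrl-inh livers, a difference of 0.020 (SE 0.071, 1.01-fold, adjusted p 0.909). The ranges lay almost on top of each other. Psmb7 had 2.46 to 2.82 (median 2.70) in miR-185-inh and 2.52 to 2.87 (median 2.70) in ctrl-inh livers, with a difference of -0.011 (SE 0.067, 1.01-fold lower, adjusted p 0.948). Their 95% intervals, in log2, were -0.19 to 0.075 for Psmb5, -0.13 to 0.17 for Psmb6 and -0.15 to 0.13 for Psmb7, and with array-median scaling Psmb5 and Psmb7 lay above zero at 0.054 and 0.099.

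Psma8, an alpha subunit known from testis, was measured close to background and was well above it on 8 miR-185-inh and 7 ctrl-inh arrays, whereas every other member was on all 16. Its log2 levels were -4.86 to -3.72 (median -4.46) in miR-185-inh and -5.26 to -3.68 (median -4.64) in ctrl-inh livers. The groups overlapped throughout, and the difference of 0.094 (SE 0.22, 1.07-fold, adjusted p 0.852) left a 95% interval of -0.36 to 0.55.

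The regulatory particle held the larger differences in both directions. Among the 6 base ATPases, which form the unfolding ring, Psmc4 was the lowest and Psmc5 the highest in miR-185-inh livers relative to ctrl-inh livers. Psmc4 had log2 levels of 3.47 to 3.78 (median 3.62) in miR-185-inh and of 3.73 to 3.97 (median 3.78) in ctrl-inh livers. All 8 miR-185-inh mice lay below the ctrl-inh mean, although the ranges overlapped at their edges. The difference of -0.18 (SE 0.061, 1.13-fold lower) had an adjusted p of 0.0979 and an exact permutation p of 0.00342, and it was -0.10 in row 1 and -0.25 in row 2. Psmc5 had 3.67 to 3.99 (median 3.75) in miR-185-inh and 3.50 to 3.76 (median 3.65) in ctrl-inh livers. Here all 8 miR-185-inh mice exceeded the mean of ctrl-inh, with mouse 9 the highest. Its difference was 0.14 (SE 0.062, 1.104-fold, adjusted p 0.206, exact permutation p 0.0174), at 0.16 in row 1 and 0.12 in row 2. Psmc2 ran from 3.81 to 4.18 (median 4.05) in miR-185-inh and from 3.91 to 4.27 (median 4.11) in ctrl-inh livers. It overlapped widely, at -0.068 (SE 0.067, 1.05-fold lower, adjusted p 0.621), and turned to 0.043 with array-median scaling. Psmc1 differed by -0.025, Psmc3 by 0.031 and Psmc6 by 0.0040.

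Psmd1 and Psmd2 are the 2 large scaffold proteins of the base, and Psmd4 is a receptor for ubiquitin chains. Psmd1 had the lowest p of all members and was higher in every miR-185-inh mouse than the mean of the ctrl-inh mice. Its log2 levels were 3.41 to 3.69 (median 3.56) in miR-185-inh and 3.27 to 3.48 (median 3.35) in ctrl-inh livers. Only the lowest miR-185-inh mice, 12 and 1, fell inside the ctrl-inh range. The difference of 0.19 (SE 0.058, 1.14-fold) had an adjusted p of 0.0679 and an exact permutation p of 0.00202, and it was 0.19 in each slide row. Psmd1 was the member that crossed the threshold most readily: its adjusted p was 0.0177 with normexp background correction, 0.0418 with quantile normalization, 0.00485 with array-median scaling, 0.0440 with slide row as a block and 0.0468 without miR-185-inh mouse 1. Other settings left Psmd1 uncalled, with limma adjusted p of 0.0675 with the 75th percentile over probes well above background on all arrays and 0.0703 on the authors' values. Among the alternatives the adjusted p of Psmd1 ran up to 0.633. Psmd2 had levels of 1.96 to 2.31 (median 2.05) in miR-185-inh and of 2.06 to 2.31 (median 2.24) in ctrl-inh livers, a difference of -0.11 (SE 0.067, 1.08-fold lower, adjusted p 0.367), with 0.0058 in row 1 against -0.23 in row 2. Pooled over both rows, the second scaffold gene thus lay on the other side of zero from the first. Psmd4 had 3.58 to 3.76 (median 3.64) in miR-185-inh and 3.53 to 3.83 (median 3.76) in ctrl-inh livers, a difference of -0.057 (SE 0.057, 1.04-fold lower, adjusted p 0.627). The miR-185-inh levels of Psmd4 lay inside the ctrl-inh range, and the difference became 0.054 with array-median scaling.

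In the lid 7 of 8 genes lay below zero, against 3 of 8 with array-median scaling and 4 of 8 with normexp, and none passed the test. Psmd14, the deubiquitinase that cleaves the chain from the substrate, had the largest absolute difference of all members. Its log2 levels were -0.052 to 0.84 (median 0.50) in miR-185-inh and 0.53 to 1.01 (median 0.88) in ctrl-inh livers. In 7 of 8 miR-185-inh mice the level was under the ctrl-inh mean, lowest in mice 12 and 9, and mouse 3 was the exception. The difference of -0.39 (SE 0.12, 1.31-fold lower) had an adjusted p of 0.0704, which became 0.0297 without that mouse 3 and 0.0341 with the 75th percentile taken over probes well above background on all arrays, and the exact permutation p was 0.00699. Within the rows it was -0.31 in row 1 and -0.46 in row 2. Psmd13, a structural lid subunit, ran from 2.08 to 2.82 (median 2.41) in miR-185-inh and from 2.36 to 2.70 (median 2.66) in ctrl-inh livers. Its miR-185-inh range enclosed that of ctrl-inh, and the difference of -0.22 (SE 0.098, 1.16-fold lower, adjusted p 0.225, exact permutation p 0.0496) lay in row 2, at -0.40, more than in row 1, at -0.031, a gap that did not pass the interaction test (adjusted p 0.357). Psmd6, also structural, had 2.84 to 3.42 (median 3.17) in miR-185-inh and 3.22 to 3.39 (median 3.28) in ctrl-inh livers. Its spread was wide in miR-185-inh (SD 0.19) and narrow in ctrl-inh livers (SD 0.060). The difference was -0.16 (SE 0.074, 1.12-fold lower, adjusted p 0.226, exact permutation p 0.0370), at -0.037 in row 1 and -0.29 in row 2. The remaining lid genes differed by -0.077 (Psmd12), -0.044 (Psmd8), -0.0070 (Psmd7, the partner of Psmd14 in the active dimer), -0.0025 (Psmd11) and 0.091 (Psmd3).

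Psmd10, Psmd5 and Psmd9 are named as subunits but are chaperones that help to assemble the base and are not in the finished particle. Psmd10 had log2 levels of 1.56 to 1.88 (median 1.72) in miR-185-inh and of 1.73 to 2.04 (median 1.87) in ctrl-inh livers. In 7 of 8 miR-185-inh mice it was under the ctrl-inh mean, at a difference of -0.16 (SE 0.063, 1.11-fold lower, adjusted p 0.171, exact permutation p 0.0149), with -0.18 in row 1 and -0.13 in row 2. A second, dimmer Psmd10 probe differed by 0.15 in the other direction (exact permutation p 0.126), so the sign for this gene depended on the probe. Psmd5 had 2.21 to 2.46 (median 2.32) in miR-185-inh and 2.06 to 2.41 (median 2.30) in ctrl-inh livers, a difference of 0.044 (SE 0.059, 1.03-fold, adjusted p 0.730). Psmd9 had 1.15 to 1.97 (median 1.45) in miR-185-inh and 1.33 to 1.74 (median 1.58) in ctrl-inh livers, a difference of -0.065 (SE 0.11, 1.05-fold lower, adjusted p 0.786). Both overlapped throughout, and Psmd9 lay above zero, at 0.045, with array-median scaling. Without these 3 chaperones the median of the regulatory particle was -0.044 over 17 genes.

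**Figure D2:**
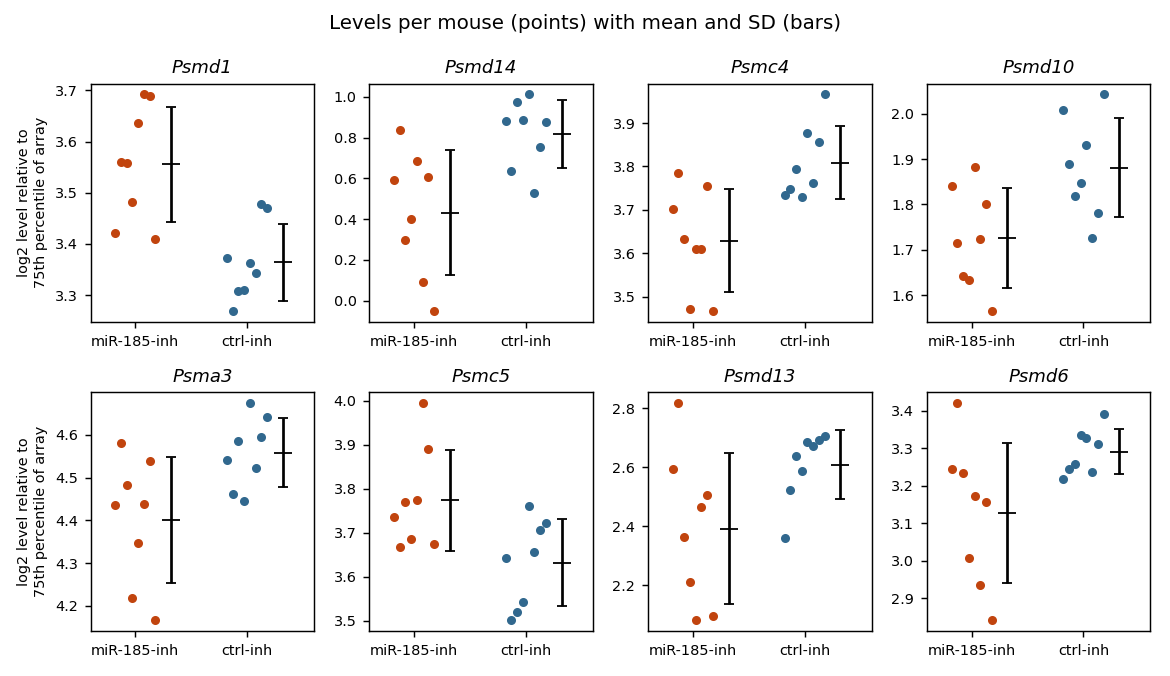
Log2 level of each mouse (points, relative to the 75th percentile of its array) for the 8 members with an unadjusted limma p under 0.05, miR-185-inh left and ctrl-inh right, with mean and SD (bars, 8 mice a group). Psmd1 and Psmc5 sit higher and the other 6 lower in miR-185-inh, also with array-median scaling, and the groups overlap in every panel; the scales of the vertical axes differ.

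A second probe, well above background on all arrays, was at hand for 8 of 35 members, and in 4 of these it lay on the other side of zero. Besides Psmd10 these were Psma4 (second probe -0.15, exact permutation p 0.0448), Psmc1 (0.076, exact permutation p 0.155) and Psmd12 (0.12, exact permutation p 0.0737). In the other 4 the sign was shared: Psmb5 (-0.14, exact permutation p 0.0322), Psmc2 (-0.087), Psmc3 (0.019) and Psmd9 (-0.049). Psmd1, Psmd14, Psmc4, Psmc5, Psma3, Psmd13 and Psmd6 had 1 probe each, and among the 8 members with an unadjusted p under 0.05 only Psmd10 had a second probe.

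Differences between mice of one group were wider than the differences between the groups, and they ran through the core and the regulatory particle alike. Over the 34 members other than Psma8, the mean deviation from the ctrl-inh mean was -0.25 to 0.077 for the core and -0.25 to 0.089 for the regulatory particle in miR-185-inh mice. In ctrl-inh mice it was -0.088 to 0.15 for the core and -0.075 to 0.095 for the regulatory particle. The difference between core and regulatory deviation was much narrower, -0.054 to 0.065 (mean 0.015, SD 0.042) in miR-185-inh and -0.057 to 0.056 (SD 0.042) in ctrl-inh mice, and the mean deviations of both particles had the same sign in 14 of 16 livers, the exceptions being miR-185-inh mice 1 and 9.

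The mice that stood lowest were miR-185-inh mice 12 and 7. In mouse 12 the core lay at -0.25, the regulatory particle at -0.25, and 31 of 34 members were below the ctrl-inh mean. In mouse 7 the values were -0.19, -0.14 and 29 of 34. Other features of the members' level range were also low in these mice, but by less, with medians of -0.11 in mouse 12 and -0.045 in mouse 7. Mouse 12 had the lowest level of all miR-185-inh mice in 24 of 34 members, and miR-185-inh mouse 3 the highest in 16. Among ctrl-inh mice, mouse 12 stood highest, at 0.15 for the core and 0.095 for the regulatory particle, and had the top level in 18 of 34 members. Without miR-185-inh mice 7 and 12, left out together after their values were seen, the medians turned to 0.022 for the core and 0.0031 for the regulatory particle, and 15 of 35 members lay below zero.

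**Figure D3:**
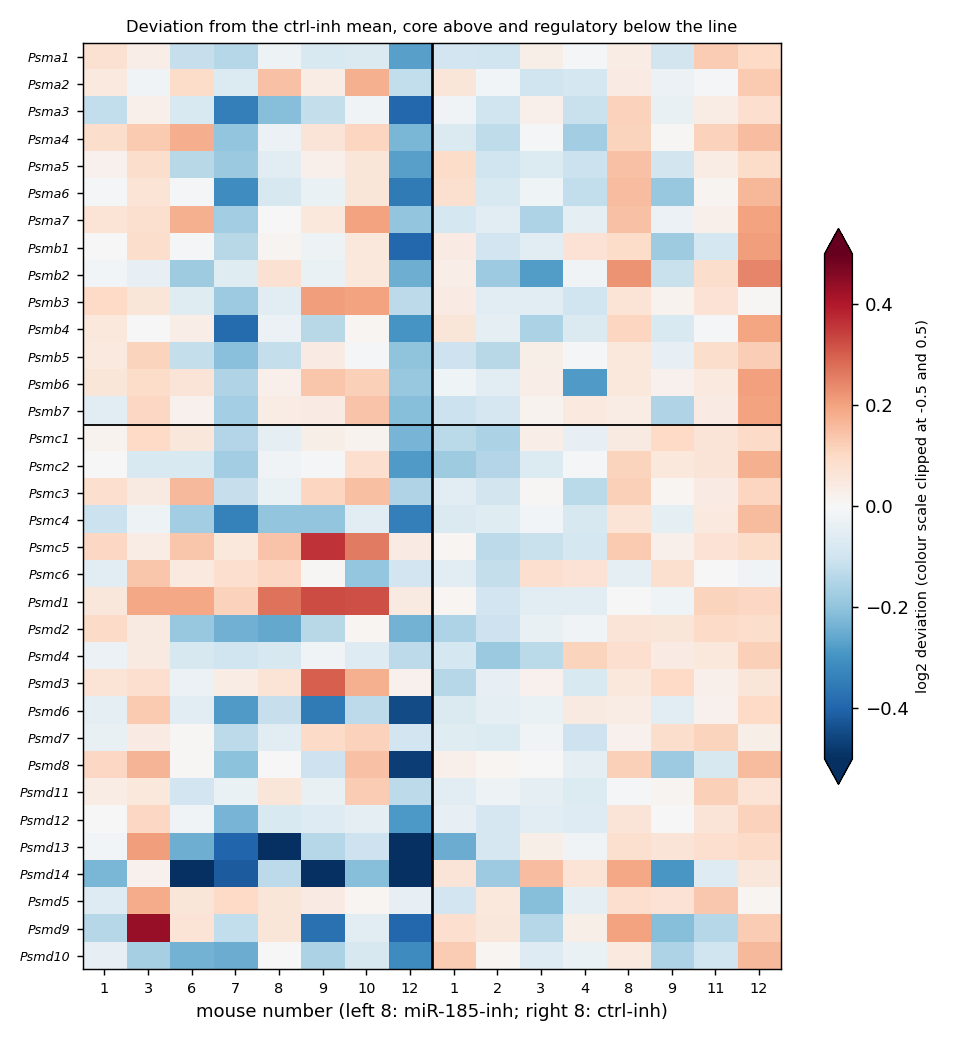
Log2 deviation of each mouse (columns, miR-185-inh left and ctrl-inh right of the line) from the ctrl-inh mean of each gene, for 34 members (rows, core above and regulatory below the line; Psma8 left out). Columns of miR-185-inh mice 12 and 7 are low across most rows of both particles, and the column of ctrl-inh mouse 12 is high.

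The spread between mice was wider in miR-185-inh livers. The SD was larger in miR-185-inh than in ctrl-inh livers for 29 of 35 members, against 61.7% of all features and 68.4% of other features in the members' level range, and the median SD was 0.12 in miR-185-inh and 0.10 in ctrl-inh livers. In the alpha ring this held for 7 of 7 genes and in the lid for 8 of 8. Without miR-185-inh mouse 12 the SD was larger for 24 of 35 members, and without mice 7 and 12 for 13 of 35, with a median SD of 0.082. These mice were chosen after their values were seen, and no ctrl-inh mouse was left out. Leaving out the lowest mice of a single group largely fixes the direction of such a change in advance. The share over all features with these mice left out is not at hand.

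Within the groups the subunit genes varied together across mice. Deviations from the group mean were correlated over the 16 arrays, as a description without a test, since all genes share the arrays and their scaling. With Psma8 left out, Pearson's r between core genes had a median of 0.69 over 91 pairs and was above zero in 91 of 91. Between core and regulatory genes the median was 0.57 (271 of 280 above zero), and between regulatory genes 0.44 (171 of 190). The pair with the highest r was Psma4 and Psmc3, at 0.95, which lie in different particles.

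Each member was also set against the mean of the others. The median r was 0.83 for the 14 core genes and 0.67 for the 20 regulatory genes, against 0.18 for all other features and 0.38 for other features in the same level range. Of all other features 6.32% exceeded the members' median of 0.76, and of those in the level range 13.0%. The genes that followed the rest most closely were Psmc4 (r 0.95), Psmd12 (0.95) and Psma3 (0.92), an ATPase, a lid and an alpha ring gene. Psmc6, an ATPase of the same ring as Psmc4, did not follow the mean of the other members (r 0.0059). Psmc6 had no second probe, so gene and probe cannot be told apart here. Psmd5 (0.30), Psmd3 (0.39), Psmc5 (0.51) and the chaperones Psmd9 (0.53) and Psmd10 (0.55) stood between. Psma8 had r -0.071. Without miR-185-inh mouse 12 the medians were 0.79 for the core, 0.60 for the regulatory particle and 0.32 for other features in the level range. With the mean of each slide row removed, over all 16 arrays, the same medians were 0.82, 0.67 and 0.36.

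**Figure D4:**
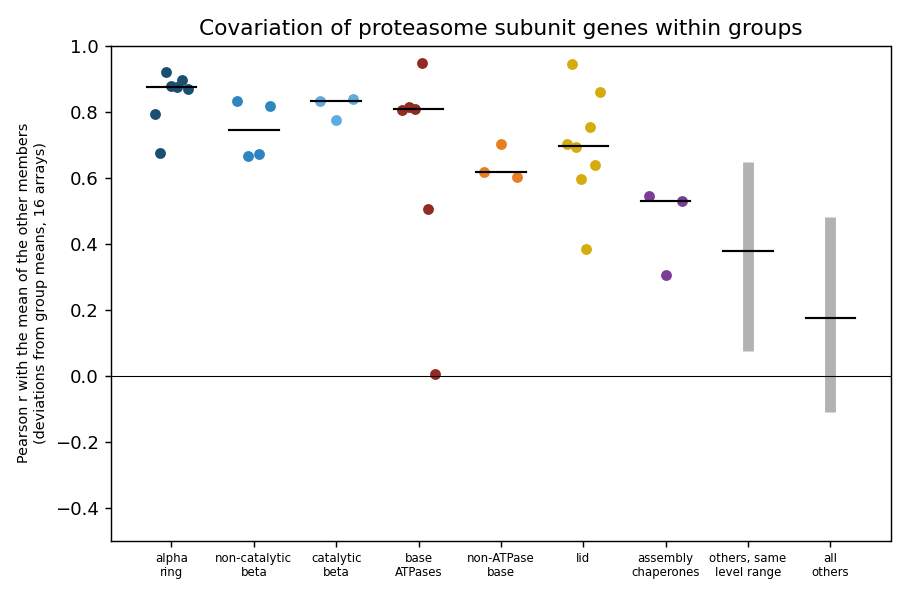
Pearson r of each member (points, by role; Psma8 left out) with the mean of the other members, over deviations from group means on 16 arrays; lines are medians and grey bars the interquartile range of other features. Core genes lie at 0.67 or above, Psmc6 lies near zero, and the medians of other features are 0.38 in the same level range and 0.18 in all.

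Since the subunit genes varied together, the promoters of the genes that followed the rest most closely, Psmc4 and Psmd12, and of Psmc6, which did not, are shown. They are RefSeq sequences of GRCm38.p6 from 250 bases before to 50 bases after the start, in the direction of transcription, at chr7:28050043-28050342 (minus strand), chr11:107479278-107479577 (plus strand) and chr14:45329574-45329873 (plus strand). Capitals mark the core of the antioxidant response element, TGACNNNGC on either strand, which NFE2L1 is known to bind, and no CCAAT box was found in these 3.
Psmc4: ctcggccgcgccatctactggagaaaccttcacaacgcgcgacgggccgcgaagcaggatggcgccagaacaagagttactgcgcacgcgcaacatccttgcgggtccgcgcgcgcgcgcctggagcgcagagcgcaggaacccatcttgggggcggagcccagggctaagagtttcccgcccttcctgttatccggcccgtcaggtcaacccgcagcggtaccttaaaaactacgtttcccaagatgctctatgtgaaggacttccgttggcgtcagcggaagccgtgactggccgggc
Psmd12: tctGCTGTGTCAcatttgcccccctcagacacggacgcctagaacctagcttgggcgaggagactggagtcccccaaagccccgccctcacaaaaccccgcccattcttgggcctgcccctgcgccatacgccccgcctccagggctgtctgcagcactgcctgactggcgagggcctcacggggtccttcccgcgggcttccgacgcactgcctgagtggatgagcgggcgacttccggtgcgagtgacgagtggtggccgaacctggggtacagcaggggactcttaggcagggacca
Psmc6: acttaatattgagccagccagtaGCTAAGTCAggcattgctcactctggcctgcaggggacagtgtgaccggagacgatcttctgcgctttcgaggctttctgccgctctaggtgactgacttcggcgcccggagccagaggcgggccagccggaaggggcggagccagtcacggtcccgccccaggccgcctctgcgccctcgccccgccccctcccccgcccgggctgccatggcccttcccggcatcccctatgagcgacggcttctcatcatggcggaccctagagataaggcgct
The element was found once in Psmd12 and once in Psmc6, on the minus strand of transcription in both, and not in this window of Psmc4, so its presence did not separate the genes that followed the others from the one that did not. Promoters were matched for 28 of 35 members (30 promoters), and 5 of the 30 held the element, 16.7%, against 12.4% of the 32851 mouse promoters of the same length. These were the promoters of Psmb5, Psmb6, Psmc6, Psmd9 and Psmd12. The CCAAT box, searched as CCAAT on both strands with overlaps between motifs allowed, was in 11 of 30, 36.7%, against 37.4% of all promoters. Median r with the other members was 0.77 for the 5 genes with the element and 0.76 for the 23 without it.

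The slide rows gave different pictures of the direction. In row 1 the members' median difference was 0.023 and 24 of 35 lay above zero, whereas in row 2 it was -0.12 and 29 of 35 lay below. In 32 of 35 members the difference was lower in row 2 than in row 1, as in 66.2% of all features and 78.7% of other features in the level range. The core moved from row to row like the regulatory particle, with medians of 0.0079 in row 1 and -0.11 in row 2 for the core, and 0.033 and -0.13 for the regulatory particle. The interaction of treatment with row passed the limma test in 0 of 35 members, against 0.372% of all features, and had an unadjusted p under 0.05 in 0 of 35, against 14.8%; 4 members had one under eBayes with trend and robust and 4 with array weights, with 0 calls in either. Either row alone gave 0 calls among the members by limma, against 0% of features in row 1 and 1.81% in row 2. At an unadjusted p under 0.05 row 1 held 2 members, against 17.9% of all features, and row 2 held 6, against 21.2%. Psmd1, Psmc5, Psmd3, Psma2 and Psmb3 were higher in both rows.

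**Figure D5:**
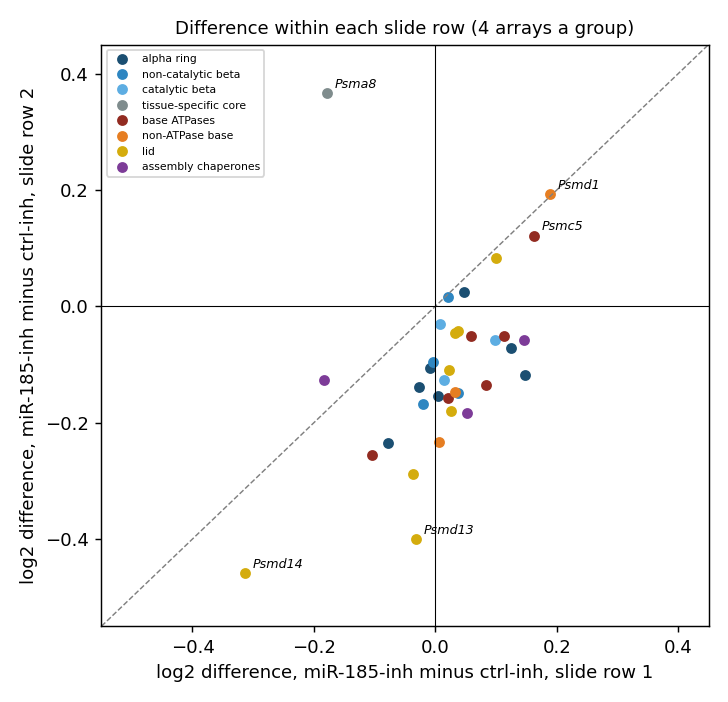
Log2 difference, miR-185-inh minus ctrl-inh, of each member in slide row 1 (horizontal) and slide row 2 (vertical), 4 arrays a group in each row; the dashed line marks equal differences. Of 35 members 32 lie below the dashed line, Psmd1 lies on it, and Psmd14 is low in both rows; with array-median scaling 28 of 35 pooled differences lie above zero.

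Other genes of the pathway were read from 7 lists with 43 genes, all 43 tested. Of these 24 lay above and 19 below zero (38 and 5 with array-median scaling), and 1 passed the test, Ube3c, which was higher in miR-185-inh, against 1.24% of all features called in that direction. Ube3c encodes a ubiquitin ligase that binds the proteasome. Its log2 levels were 0.025 to 0.58 (median 0.24) in miR-185-inh and -0.25 to 0.0022 (median -0.061) in ctrl-inh livers. The groups did not overlap, as in 0.857% of all features, and the difference of 0.35 (SE 0.076, 1.28-fold) had an adjusted p of 0.0151 and an exact permutation p of 0.000155, the smallest this design can give. It was 0.40 in row 1 and 0.30 in row 2, neither of which passed alone (adjusted p 0.156 and 0.122).

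The other 5 genes for subunits and docking proteins were not called. Adrm1, a ubiquitin receptor that binds Psmd1, differed by 0.11, Sem1, a small lid subunit, also by 0.11, and the deubiquitinases Usp14 and Uchl5 by 0.026 and -0.051, while Txnl1 differed by 0.19. Among the assembly factors 5 of 6 lay above zero and none passed, led by Psmg2, a chaperone of the alpha ring, at 0.26 (adjusted p 0.0928). Of the NFE2L1 pathway 5 of 7 lay above zero, again without a call. Nfe2l1 itself differed by -0.013, its protease Ddi2 by 0.070 and its small partner Mafg by 0.19 (adjusted p 0.0999).

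The inducible immunoproteasome genes lay below zero in 3 of 3 (1 of 3 with array-median scaling), with Psmb8 at -0.14, Psmb9 at -0.068 and Psmb10 at -0.040, and none passed the test (lowest adjusted p 0.480). The medians of the immune cell marker lists also lay below zero when both slide rows were pooled, but this was not particular to immune cells. The hepatocyte (-0.080), cholangiocyte (-0.087), erythroid (-0.14) and pancreatic acinar (-0.36) medians lay below zero as well. Those of the stellate cell (0.11) and endothelial (0.044) lists lay above zero. Below zero were 10 of 10 neutrophil genes (median -0.98), against 58.0% of all features. Of these genes 2 were called lower by limma, Ltf and Ngp, against 3.47% of all features. Also below zero were 10 of 10 Kupffer cell and macrophage genes (median -0.14, 0 called by limma and 0 at an unadjusted p under 0.05). The same held for 5 of 8 T and B lymphocyte genes (median -0.053, 0 called by limma and 0 at an unadjusted p under 0.05). Only 6 of 10 neutrophil genes were well above background on all arrays. Ltf was so on 3 miR-185-inh and 8 ctrl-inh arrays, Mpo on 3 and 7, and Camp on 6 and 8. Ltf thus passed the filter largely through the ctrl-inh arrays, where it was higher, and its size of difference is uncertain. Within slide rows 10 of 10 neutrophil genes were below zero in both, whereas macrophage genes were in 10 of 10 in row 1 and 2 of 10 in row 2, lymphocyte genes in 8 of 8 and 2 of 8, and immunoproteasome genes in 3 of 3 and 2 of 3. With array-median scaling 10 of 10 neutrophil, 6 of 10 macrophage and 1 of 8 lymphocyte genes were below zero. The summed linear level of the neutrophil list was 24.6 to 67.7 in miR-185-inh and 32.4 to 73.6 in ctrl-inh livers. That of the macrophage list was 66.7 to 114.6 in miR-185-inh and 84.2 to 120.0 in ctrl-inh livers, so both sums overlapped. Such a sum follows the brightest probes, such as Csf3r (mean log2 level 4.19 in miR-185-inh, 4.35 in ctrl-inh) and Lcn2 (3.09 and 4.04). It holds little of the dim called genes Ltf (-5.22 and -3.25) and Ngp (-4.34 and -3.11), so its overlap does not describe the 10 genes singly. The part of neutrophils and macrophages in the immunoproteasome values was not tested. Of the 5 activators and inhibitors 3 lay above zero and none passed, with Psme3, a nuclear activator, at -0.26 (adjusted p 0.207). Of 6 genes for ubiquitin and its activating enzymes 2 lay above zero, among them none called, with Uba6 at -0.34 (adjusted p 0.196) and Ubb at -0.18. Of 10 shuttle and segregase genes 4 lay above zero, with Vcp, the segregase, at 0.048. With array-median scaling 4 of 5 activators and inhibitors, 4 of 6 ubiquitin and activating enzyme genes and 10 of 10 shuttle and segregase genes were above zero.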

How the data were processed

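Liver RNA of 16 mice was hybridised to 1-colour Agilent arrays. Per the file headers, the deposited scanner files hold the processed spot intensity, background-subtracted by Feature Extraction 11.5.1.1, on a grid of build mm9; Agilent Feature Extraction 9.1 is the version per the submitters' processing notes. The authors' table is on a log2 scale and equals log2 of that intensity minus 1 constant per array; the basis of that constant is not stated in what was used here. Medians of its columns lay between -1.30 and -1.22.

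Processed intensities were divided by the 75th percentile of their array (over 59305 non-control spots) and put on a log2 scale. Outlier-marked spots were left out, spots of a probe averaged, probes filtered for signal well above background on 8 or more arrays, and a gene taken from its brightest probe. Accessions were named through RefSeq (26762 of 55681 probes). Groups, from the labels' treatment field, were compared in R 4.3.3 with limma 3.58.1 (lmFit and eBayes), Benjamini-Hochberg over all 25790 features, threshold 0.05, and single genes by a two-sided exact permutation test over 12870 assignments of the mice. On simulated data of this comparison limma found 68% of 100 features simulated at 1.5-fold, 89% of 100 at 2-fold and 14 false ones among 25790. The number of arrays limits the precision, and p-values measure only the spread between these samples, which the labels do not say came from separate animals beyond their mouse numbers.

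The members and lists were chosen with earlier results of these data known. Every member is named once, with full statistics for any called member and for up to 3 members with the smallest p per role group. Alternatives covered background correction, scaling, filters on dim probes, probe choice, eBayes and weight settings, slide row, a replicate block and left-out mice. Normexp used median spot signals, although mean signals had been planned where present. Mice sharing a number in both groups (5 numbers) had correlations of -0.13 to 0.11 between their deviations, so the numbers were not taken as pairs.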

Additional observations from a re-analysis of the deposited data

How the results depend on the processing

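Under all 18 alternatives other than leaving out 1 mouse, between 0 and 4 of 35 members were called. One member, Psmd1, was called (1 of 35, higher) with normexp (offset 50; 4.52% of all features), with trend and robust (4.18%), with array weights (6.60%) and with slide row as a block (6.01%). Quantile normalization called 2 (3.35% of all features; Psmc4 lower, Psmd1 higher), the 75th percentile over probes well above background on all arrays 3 (7.08%; Psma3, Psmc4 and Psmd14, lower), the array median 3 (9.62%; Psmc5, Psmd1 and Psmd3, higher), and centring on features of the members' level range, chosen after seeing the data, 4 (7.25%; Psma3, Psmc4 and Psmd14 lower, Psmd1 higher). Leaving out single mice gave 0 to 1 members called, 735 to 1582 features called, core medians of -0.064 to -0.0014 and regulatory medians of -0.069 to -0.0072.

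Over all features 1215 were called, 320 of them higher. The count was 1826 (308 higher) with the percentile over detected probes, 2481 (1986 higher) with the array median, 1869 with the level-range centring, 0 in row 1 (4609 at an unadjusted p under 0.05), 466 in row 2 and 581 without miR-185-inh mice 7 and 12, chosen after seeing the data. Quantile normalization gave 863 (396 higher) and normexp 1166 (558 higher). With a replicate block over the 5 shared mouse numbers 0 were called by limma (2598 at an unadjusted p under 0.05), and 0 of the 5 numbers correlated best with itself. The array median moved the core to 0.061 and the regulatory median to 0.060, and row 1 alone the regulatory median to 0.033. Averaging the probes of a gene put the regulatory median at -0.0048 and the core at -0.055.

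Signs turned for 16 of 35 members with the array median, 14 in row 1 alone and 6 in row 2 alone; of the members given with full statistics these were, with the array median, Psma1 (0.036), Psma6 (0.028), Psmb4 (0.016), Psmb2 (0.055), Psmb1 (0.061), Psmb5 (0.054), Psmb7 (0.099), Psmc2 (0.043), Psmd4 (0.054) and Psmd9 (0.045). In row 1 alone they were Psma1 (0.0040), Psmb2 (0.037), Psmb5 (0.014), Psmb7 (0.0079), Psma8 (-0.18), Psmc2 (0.022), Psmd2 (0.0058), Psmd4 (0.033) and Psmd9 (0.053), and in row 2 alone Psmb6 (-0.058) and Psmd5 (-0.058). Normexp turned Psmb5 (0.067) and Psmd5 (-0.014), the percentile over detected probes Psmb6 (-0.0070), array weights Psmb2 (0.016) and Psma8 (-0.037), the replicate block Psmb6 (-0.033) and Psma8 (-0.011), and leaving out mice 7 and 12 Psma6 (0.00046), Psmb1 (0.022) and Psmb7 (0.049). Without single mice Psmb6 ran from -0.021 to 0.049, Psmb7 from -0.033 to 0.018 and Psma8 from -0.019 to 0.21. The cause was not tested for any of these. Ube3c stayed positive throughout, at 0.31 to 0.39 without single mice, with adjusted p up to 0.0330; the replicate block put it at 0.31 (adjusted p 0.367). Signal over background limits Psma8 most.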
